A study of Mus musculus with 6 samples.

Results

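Kinesins are motor proteins that walk along microtubules or shorten them, using ATP. The genes described here are all those whose names begin with Kif or Kifc followed by a number, without the entries marked as pseudogenes (-ps), in 2 tables of counts per gene from mouse oocytes. The rule took 44 of 54658 gene entries in a table of single oocytes and 35 of 14165 in a table of pooled oocytes, and the 35 are among the 44. Of the 44, 42 are motor genes. The exceptions are Kif1bp, which encodes a protein that binds kinesins, and Kif16bos, a transcript from the strand opposite Kif16b. The pools table lists the binding protein under its other symbol Kifbp, so there it falls outside the rule. Cenpe and Stard9 are kinesin genes under other names and are given only where compared.

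The study asked how oocytes of young and aged mice differ and what loss of Plat, the gene of tissue plasminogen activator, does to them. All samples are MII oocytes, mature eggs arrested in the second meiotic metaphase until fertilization. One sample holds 35 single oocytes labelled young, and another holds 59 single oocytes labelled aged, both without treatment. The 4 other samples are pools of 10 oocytes labelled young: 2 received a control siRNA (siCtrl) and 2 an siRNA against Plat (siPlat). The labels give no strain, no age in weeks and no animals, so oocytes were not treated as replicates of an age, and the p-values of the pools measure the spread between these pools, which may be technical. With 1 sample per age, age and any batch cannot be told apart.

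A fully grown oocyte makes little new RNA and lives on stored messages, many of which are translated only when their poly(A) tail is lengthened in the cytoplasm. The MII spindle is built without centrosomes, and kinesins that cross-link, slide and trim microtubules or push chromosomes shape it. Others assemble the spindle midzone that later guides the extrusion of the second polar body, and a further group carries membranes and protein complexes as cargo.

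Each library was made from poly(A) RNA with Smart-seq2. The pools held 12142884 to 17475952 counts, the young single oocytes 5480050 to 11894782 and the aged ones 2018226 to 9502184. Of the 59 aged oocytes, 21 had a mitochondrially encoded share of counts above 5% (6.78% to 61.6%), whereas the other 38 lay between 0.947% and 2.97%. In the 21, the summed level of 11 oocyte markers was 751 to 5126 CPM (counts scaled to a common library total), against 23490 to 35809 in the 38 and 25468 to 35466 in the young oocytes. The 21 libraries therefore stand apart, and results on age are given with and without them. Markers of cumulus and granulosa cells summed to 52.8 to 113 CPM in the young oocytes and 39.0 to 107 in the 38. Plat itself had 441 and 439 CPM in the siCtrl pools, beside 51.4 and 39.0 in the siPlat pools, a log2 fold change of -3.28 (SE 0.19, edgeR adjusted p = 6.21e-06).

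Transcripts of cell division kinesins led the family in young oocytes. Levels between genes are compared as CPM per kilobase of exon from the summed counts of the 35 oocytes. Kif23, a subunit of the centralspindlin complex of the midzone, came first at 136 CPM per kb, and single oocytes ranged from 89.0 to 162. Kif20a, which carries the chromosomal passenger complex to the midzone, followed at 56.6 (21.6 to 81.8) and Kif20b, a motor of late cytokinesis, at 52.7 (37.6 to 76.6). The ranges of these 2 genes overlapped almost fully, while every oocyte's Kif23 level lay above every oocyte's level of either. Kif4, a chromosome-bound motor that also acts at the midzone, stood at 33.2 CPM per kb (22.5 to 41.4).

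Spindle motors filled most of the next places. Kif2c, a microtubule depolymerase of centromeres, was at 25.1 CPM per kb (10.6 to 43.2) and Kif22, a chromosome-bound motor that pushes chromosome arms, at 18.3 (12.6 to 24.0). Kif18a, which damps chromosome movements, was at 14.9 (10.7 to 22.7), Kif11, which slides antiparallel microtubules apart, at 13.3 (9.90 to 17.7), and Kif14, a cytokinesis motor, at 13.1 (8.84 to 16.7). Kif2a, a depolymerase of spindle poles, was at 12.1 (7.39 to 25.4). The ranges of Kif18a, Kif11, Kif14 and Kif2a overlap, so their order is not larger than the spread between oocytes. Kif20b and Kif4 met only at the lowest and highest oocytes, and the ranges of Kif4, Kif2c, Kif3a, Kif22 and Kif18a overlap from each gene to the next.

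Among the first 12 members only Kif3a, a subunit of the kinesin-2 motor of cilia, at 24.1 CPM per kb (17.8 to 28.4), and Kif17, another kinesin-2, at 12.1 (7.95 to 16.9), are known mainly for transport. The main transport motors came below them. Kif5c was at 9.77 CPM per kb and Kif5b, the widely expressed heavy chain of conventional kinesin, at 7.57. Kif1b, an organelle motor, was at 4.95. Kif3b, the usual partner of Kif3a in a heterodimer, was at 1.92 CPM per kb (0.87 to 3.37), below the lowest Kif3a value in every oocyte.

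The 12 highest members held 88.1% of the summed CPM of all 44. The same 12 led in the 38 aged oocytes with a share up to 5%, and 11 of them led in the siCtrl pools, where Kif5b took the place of Kif11. The sum over all members was 2697 to 3519 CPM per young oocyte (median 3014) and 2618 to 3360 in the 38 aged oocytes (median 2933). Thus the total kinesin share of the counts overlapped between the young oocytes and these 38. In the other 21 aged oocytes the sum was 817 to 2275 CPM, below the lowest young oocyte in each. The plot of levels per kilobase shows the members that had a count in all 35 young oocytes.

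**Figure D1:**
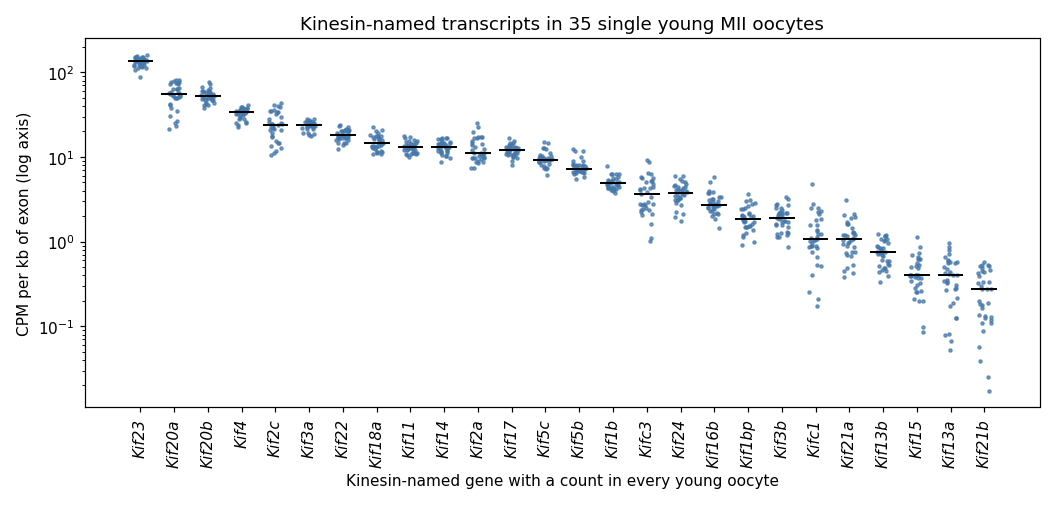
Level of each of the 26 members with a count in all 35 young oocytes, as CPM per kb of exon on a log axis. Each point is 1 oocyte and each bar is the median over oocytes. Kif23 lies above all others at a summed level of 136, and the 12 leftmost genes are at 12.1 or more.

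At the low end of the family, many members were seen in few oocytes. In both the young oocytes and the 38 aged ones, 26 of 44 members had a count in every oocyte. Kif12 and Kif2b had no count in any of the 94 libraries, and 0 of 35 young oocytes allows a share of up to 8.57% (3 of 35) of oocytes with a count, which does not limit how many hold the transcript. Kif1a and Kif5a, axonal transport motors, had a count in 6 and 3 of 35 young oocytes, Kif19a, a ciliary motor, in 7, Kif6 in 8, Kifc2 in 4 and Kif7, of the Hedgehog pathway, in 1. Kif3c was seen in 13, Kif16bos in 15, Kif26a in 20 and Kif1c in 28 young oocytes. Kif27, Kif28, Kifc5b, Kif9, Kif18b and Kif26b had a count in 32 to 34 of the 35, all at a summed level of 0.606 to 2.94 CPM. Kif13a, Kif21b and Kifc1 had a count in all 35 but stayed at 3.27 to 4.67 CPM.

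Between young oocytes, well expressed members varied about as much as other genes. For the 15 members with at least 50 CPM, the median coefficient of variation was 0.166 (0.115 to 0.378), beside 0.193 for the 3233 genes at that level. Kif2c (0.378), Kif2a and Kif20a varied most among them. Kif20a ranged from 93.8 to 355 CPM (median 238), Kif2a from 47.2 to 163 (median 71.1) and Kif2c from 46.4 to 188 (median 104).

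Kif20a and Kif2a varied in opposite directions. Over the 35 young oocytes Spearman's rho was -0.75 (Pearson's r -0.74, and -0.66 without the 2 oocytes farthest from the median of Kif20a). Over the 38 aged oocytes rho was -0.82 (r -0.84, and -0.82 without 2 oocytes). Of the 66 pairs among the 12 highest members, 2 had rho past 0.5 in size with the same sign in both samples, this one and the positive pair Kif20b and Kif18a (rho 0.55 and 0.64). In the young oocytes Kif23 and Kif2a had a lower rho (-0.81), but it was -0.09 in the 38 aged ones. Among 3232 genes other than Kif20a with at least 50 CPM, 30 (0.928%) had a rho with Kif20a as low as Kif2a in both samples. Kif2a is near that end but not alone. The pair was picked as the strongest of the 66 in both samples, so a small share follows in part from that choice. A rho with Kif20a of -0.5 or lower was common, at 17.3% of these genes in the young and 18.3% in the 38 aged oocytes. These are descriptions, as oocytes of a sample may share an animal and both values share a library total. The counts per ERCC spike-in count moved with both genes: rho was 0.68 and 0.86 for Kif20a and -0.62 and -0.82 for Kif2a in the young and the 38 aged oocytes. The mitochondrially encoded share did so too (-0.46 and -0.65 for Kif20a, 0.65 and 0.56 for Kif2a), and the part of either in the relation was not tested.

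**Figure D2:**
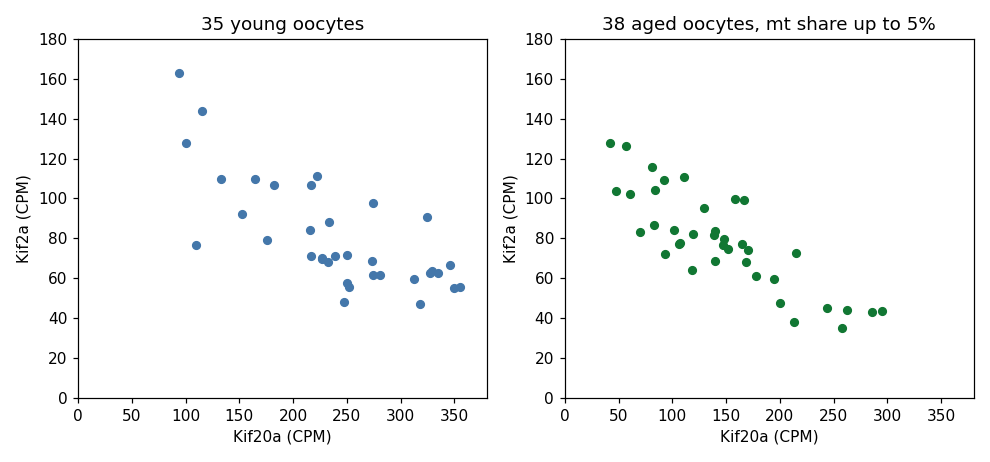
Kif2a against Kif20a in CPM, 1 point per oocyte, for the 35 young oocytes and for the 38 aged oocytes with a mitochondrially encoded (mt) share up to 5%. In both samples oocytes with more Kif20a have less Kif2a (rho -0.75 and -0.82).

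Since stored oocyte messages are known to be read out through cytoplasmic polyadenylation elements, the annotated 3′ ends of the members were searched for the letters of this element. The letters TTTTAT or TTTTAAT on the transcript strand within the last 100 bases of the 3′ UTR were found in 9 of 40 members with a 3′ UTR that long (22.5%), beside 17.9% of 19369 protein-coding genes. The 9 are Kif11, Kif18a, Kif20b, Kif26a, Kif26b, Kif27, Kif9, Kifc1 and Kifc5b. 3 of the 12 highest members are among them, and their sites are shown because Kif20b and Kif18a varied together. They were read from mm10 with the GENCODE M21 annotation, 5′ to 3′ on the transcript strand, with the searched letters in capitals.
Kif11, 3′ UTR, chr19:37421830-37421859, plus strand: aattttttaaattaaattaTTTTAATtttt
Kif18a, 3′ UTR, chr2:109341699-109341728, plus strand: aatgtgctaataTTTTATtacttggtatat
Kif20b, 3′ UTR, chr19:34975696-34975725, plus strand: tcttgtatataaTTTTAATtcaataaatat
The letters begin 11 bases (Kif11), 37 bases (Kif18a) and 28 bases (Kif20b) before the annotated transcript end. Such a match is a description and not a site shown to be used, and the members' share is near that of all genes.

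The siPlat pools were compared with the siCtrl pools to see whether loss of Plat transcripts came with a change in these motors. No member passed the test: 0 of 30 tested members were called at an edgeR adjusted p under 0.05, beside 3.54% of the 11136 genes tested (394; 2.13% higher and 1.41% lower). At an unadjusted p under 0.05 there were 7 members, 6 lower and 1 higher in siPlat, beside 8.93% lower and 9.9% higher over all genes. The fitted log2 fold change was below 0 for 24 of 30 members (80%, all genes 52.2%), with a median of -0.25 (all genes -0.03). Both siPlat pools lay below both siCtrl pools for 16 of 30 members (53.3%), beside 25.8% of all genes, and above them for 4 (13.3%), beside 23.5%. In pooled oocytes, fewer cells with a transcript and less of it per cell cannot be told apart.

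The 6 members on the lower side at an unadjusted p under 0.05 were Kif15, Kif22, Kif14, Kif11, Kif23 and Kif4. Kif15, which can stand in for Kif11 in holding spindle poles apart, had 6.78 and 7.35 CPM in siCtrl, beside 2.50 and 2.20 in siPlat, the lowest log2 fold change of the family at -1.58 (SE 0.40, adjusted p = 0.0556). Kif22 was at 71.4 and 68.3 against 44.4 and 42.2 CPM (log2 fold change -0.69, SE 0.18, adjusted p = 0.0680). For both genes the 2 pools of each group lay close together and the groups were well apart, yet neither passed the threshold.

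Kif14 had 190 and 156 CPM in siCtrl, beside 98.7 and 125 in siPlat (log2 fold change -0.63, SE 0.19, adjusted p = 0.0972). Kif11 was at 73.1 and 72.5 against 54.6 and 40.8 CPM (-0.61, SE 0.20, adjusted p = 0.127). In both genes the siPlat pools differed more among themselves than those of Kif22 but stayed below siCtrl. Kif23, the most abundant member, was at 826 and 798 against 556 and 662 CPM (-0.41, SE 0.15, adjusted p = 0.166), and Kif4 at 236 and 224 against 166 and 184 (-0.39, SE 0.16, adjusted p = 0.211).

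The call for these genes turned with the test and with single pools. DESeq2, which gave no adjusted p to 7 members, called Kif14, Kif15 and Kif22 (0.0400, 0.0475 and 0.0271; 6.13% of all genes called), whereas neither limma-voom (3.72% of genes) nor edgeR with DESeq2's size factors (3.6%) called any member. Without a filter on low counts edgeR called Kif15 and Kif22 (0.0358 and 0.0466, with 4.13% of genes called). A fit without 1 pool leaves that group a single pool, assumed to vary like the other 2. In such fits Kif11, Kif15, Kif22 and Kif5b were under the threshold without siPlat pool 1 (6% of genes), and Kif14 and Kif23 without siPlat pool 2 (9.66%). Without siCtrl pool 1 or 2 no member was (1.34% and 1.37% of genes).

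The member on the higher side at an unadjusted p under 0.05 was Kif5b. It had 115 and 105 CPM in siCtrl, beside 140 and 182 in siPlat (log2 fold change 0.55, SE 0.18, adjusted p = 0.129). The other heavy chain measured, Kif5c, overlapped between the groups (0.09, SE 0.20). Low members with separate groups and a fold of at least 1.5 were Kif13a, a membrane cargo motor (2.69 and 1.13 against 4.40 and 3.46 CPM, adjusted p = 0.359), and Kif28 (1.06 and 1.13 against 2.41 and 1.81, 0.531) on the higher side. On the lower side were Kifc1, a minus-end spindle motor (4.93 and 5.79 against 3.79 and 1.81 CPM, 0.313), Kif9, a motor of cilia (3.47 and 3.53 against 3.10 and 0.628, 0.515), and Kif21b (2.63 and 3.25 against 1.55 and 2.04, 0.554). At these levels a pool held few counts of each gene, and none of the 5 passed the test.

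The other leading members did not pass the test either. Kif20a had 91.0 and 79.1 CPM in siCtrl, beside 76.4 and 81.8 in siPlat (log2 fold change -0.11, SE 0.18), Kif20b at 412 and 369 against 347 and 364 (-0.14, SE 0.15) and Kif3a at 189 and 185 against 171 and 189 (-0.06, SE 0.16). With SEs of this size, small differences either way were not detectable. Kif17 was at 57.4 and 63.4 against 48.0 and 49.0 CPM (-0.32, SE 0.18) and Kif2c at 88.5 and 95.9 against 77.6 and 76.7 (-0.26, SE 0.17). Both siPlat pools of these genes lay below both siCtrl pools. Kif2a was at 70.3 and 69.0 against 67.7 and 57.2 CPM (-0.16, SE 0.18), and Kif18a, on the higher side, at 383 and 353 against 454 and 385 (0.19, SE 0.16). Their adjusted p was 0.399 to 0.712. The remaining tested members, Kif13b, Kif16b, Kif18b, Kif1b, Kif1c, Kif21a, Kif24, Kif27, Kif3b, Kif5c and Kifc3, had an unadjusted p above 0.05, and Kif16bos, Kif26a, Kif3c, Kif6 and Kifc5b had too few counts to be tested. Kif12, Kif19a, Kif1a, Kif26b, Kif2b, Kif5a, Kif7 and Kifc2 have no values for the pools here. Kif1bp, listed there as Kifbp, was at 21.4 and 21.1 CPM in siCtrl against 15.9 and 22.3 in siPlat (log2 fold change -0.15, SE 0.25, edgeR adjusted p = 0.812).

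**Figure D3:**
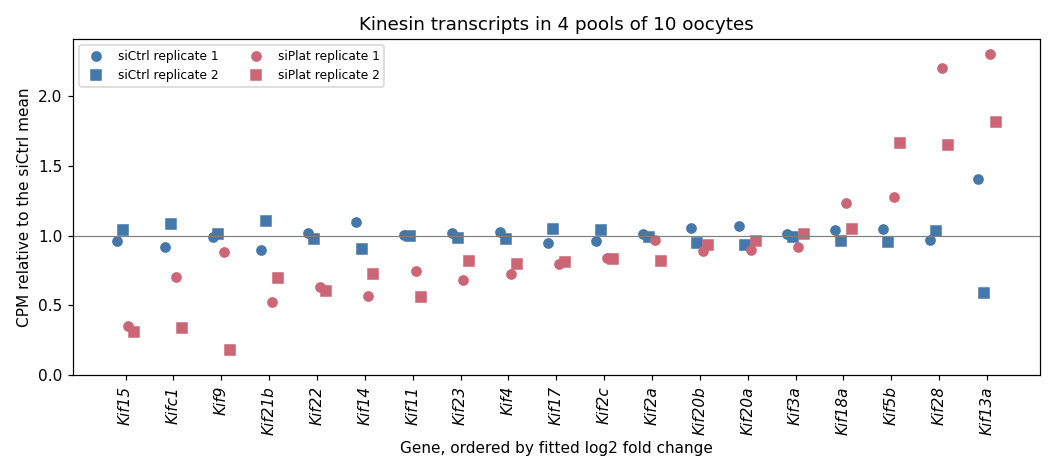
CPM of 19 members in the 4 pools, each divided by the mean of the 2 siCtrl pools, ordered by fitted log2 fold change. Kif15, Kif22, Kif14 and Kif11 in siPlat lie below both siCtrl pools and Kif5b above them, and no member had an adjusted p under 0.05.

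Genes that work with kinesins were counted from lists, beside 3.54% of all genes called by edgeR (2.13% higher and 1.41% lower). Of 24 spindle and midzone partners, 1 was lower in siPlat and none higher: Prc1, which bundles antiparallel microtubules at the midzone and binds Kif4 and Kif14, at 888 and 810 CPM in siCtrl and 589 and 496 in siPlat (log2 fold change -0.65, SE 0.15, edgeR adjusted p = 0.0445). The median of this list was -0.26. Of 24 tested genes of dynein and dynactin, the minus-end motor and its activator, 1 was lower: Dynlt1a, a light chain, at 27.6 and 41.9 against 17.8 and 12.96 CPM (-1.17, SE 0.27, adjusted p = 0.0401), and the list's median was -0.06. None of 14 tested light chains and cargo adaptors, Kifbp among them, was called by edgeR, and none had an unadjusted p under 0.05. Both calls are lost in the fit without siCtrl pool 2. The call of Prc1 is also lost without siCtrl pool 1 (adjusted p = 0.345) and with DESeq2's size factors (0.0536). In the fit without siPlat pool 2 the medians of the spindle and the dynein list were -0.26 and -0.09, beside -0.05 for all genes. Cenpe, the kinetochore kinesin, was at 596 and 626 against 534 and 580 CPM (adjusted p = 0.693). The oocyte's own markers moved in the same pools: 4 of 11, namely Gdf9, Zp1, Mos and H1f8, were called lower in siPlat by edgeR, beside 1.41% of all genes, and 1 of 11 without siCtrl pool 2. With all 4 pools none was called higher, which did not hold in every fit without 1 pool. The fitted log2 fold change was above 0 for Ddx4 (0.43), Dppa3 (0.39) and Oosp1 (0.27). For Zp1 the siCtrl pools themselves differed, at 129 and 222 CPM, as they did for Zp2 (228 and 494) and Zp3 (259 and 545). The part of these markers in the kinesin values was not tested.

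Aged oocytes were set beside young ones by summed counts, with no test because each age is 1 sample. The median ratio of the kinesins lay close to that of all genes. For the 23 members whose mean over both ages reached 5 CPM, the median log2 ratio of aged over young, with a pseudocount of 1 CPM, was -0.08 (8303 genes: -0.07), with 11 above and 12 below 0. Without the 21 aged libraries of high mitochondrially encoded share the median was 0.06 (all genes 0.08). Past 1.5-fold were 5 of 23 members with all libraries, 21.7% beside 18.8% of all genes (9.45% higher, 9.38% lower). Without the 21 there were 4, Kif14, Kif17 and Kif21a higher and Kif20a lower, 17.4% beside 10.4% of all genes (8.58% higher, 1.85% lower). Of the 5 with all libraries, Kif14, Kif21a and Kif20a stayed past that fold without the 21, and Kif16b and Kif3b did not.

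The 3 members higher in CPM belong to different roles. Kif14 had 136 CPM over the young oocytes (95% exact Poisson interval 135 to 137, counting error only, as reads copied by PCR are not independent) and 224 over the 38 aged oocytes (222 to 226), 1.64-fold higher. Young oocytes ranged from 91.6 to 173 CPM (median 138) and the 38 aged ones from 156 to 339 (median 223). Of the 38, 34 lay above the highest young oocyte, which as many or more did for 0.59% of all genes. Kif17 had 55.4 and 91.4 CPM in the sums, again 1.64-fold higher. Its range was 36.4 to 77.2 (median 55.8) in young and 56.1 to 251 (median 88.8) in the 38 aged oocytes, and 24 of 38 were above the highest young oocyte (2.57% of genes have as many). Kif21a, which restrains microtubule growth at the cell cortex, was low, at 7.73 against 14.2 CPM, and its ranges overlapped widely (2.49 to 20.1 and 3.51 to 25.1).

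Kif20a was the member past 1.5-fold on the lower side without the 21 libraries. It was inside that fold (log2 ratio -0.52) when all aged libraries above a share of 2% were left out. It had 246 CPM (244 to 247) over the young oocytes and 152 (151 to 154) over the 38 aged ones, 1.61-fold lower. Its values were 93.8 to 355 (median 238) in young and 42.2 to 294 (median 140) in aged oocytes, so the samples overlap, with 10 of 38 below the lowest young oocyte (as many in 5.66% of genes). Gene counts per ERCC count, with which Kif20a moved within each sample, were 18.3 to 147 in young oocytes (median 63.7) and 14.8 to 49.5 in the 38 (median 29.5); the part of this in the difference was not tested. Kif2a, which ran opposite to Kif20a from oocyte to oocyte, had close levels at both ages, 77.7 and 77.0 CPM. Over the siCtrl pools, also labelled young but counted in a separately normalized table, Kif20a averaged 85.1 CPM, below the lowest single young oocyte. Others averaged more there than the highest single young oocyte, such as Kif18a (368 against 223 CPM) and Kif3a (187 against 102). Plat averaged 440 CPM in the siCtrl pools, beside 4295 to 9913 in single young oocytes. A difference between the 2 tables is thus not particular to Kif20a, and its cause was not tested.

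Several other members were close to the young level in the 38. Kif11 was at 99.2 CPM in young and 96.8 in aged oocytes, Kif22 at 89.7 and 84.3, Kif2c at 109 and 120, Kif18a at 147 and 150 and Kif3a at 86.4 and 83.5. Kif23 was at 1076 and 965 and Kif20b at 367 and 327, both slightly lower with overlapping ranges. Kif4 was at 183 and 225, with 16 of 38 aged oocytes above the highest young one (6.11% of genes). Kif13b, a membrane cargo motor, was at 9.78 and 14.6, with 15 of 38 above (6.88%). Kif5b was at 60.4 and 50.7, with 12 of 38 below the lowest young oocyte (4.2%). Kif15, Kif16b, Kif1b, Kif1bp, Kif24, Kif3b, Kif5c and Kifc3 had log2 ratios of 0.03 to 0.46 in the 38. Scaled to ERCC counts instead of gene counts, the median of all genes moved to -0.71 without the 21 libraries and to -1.43 with them. Past 1.5-fold were then 14 and 22 of 23 members, beside 64% and 95.3% of all genes. The log2 ratio then turned below 0 for Kif14 (-0.12 and -0.82) and Kif17 (-0.11 and -0.92), was 0.04 and -0.43 for Kif21a, and was -1.52 and -2.56 for Kif20a. Relative to the median of all genes Kif14, Kif17 and Kif21a were higher and Kif20a lower under either scaling. This is no separate check, because ERCC scaling shifts the ratios of all genes nearly alike.

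**Figure D4:**
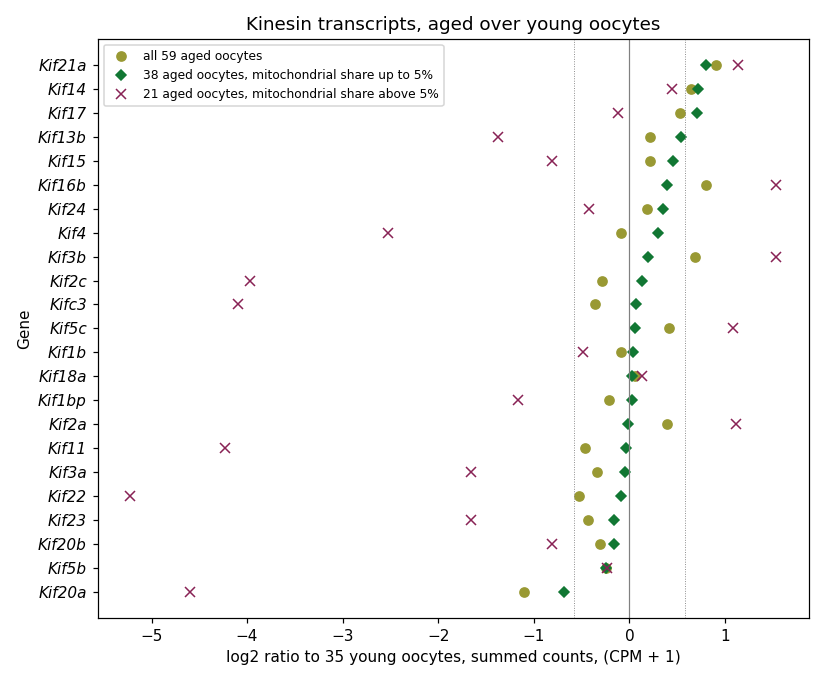
Log2 ratio of aged over 35 young oocytes from summed counts, (CPM + 1), for the 23 members with at least 5 CPM, with all 59 aged oocytes, the 38 with a mitochondrially encoded share up to 5% and the 21 above it. Dotted lines mark 1.5-fold, and in the 38 only Kif21a, Kif14 and Kif17 (higher) and Kif20a (lower) pass them; scaled to ERCC counts, Kif14 and Kif17 lie below 0.

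In the 21 aged libraries with a high mitochondrially encoded share the members differed widely from each other. Their log2 ratio to young ran from -5.23 to 1.54, with a median of -0.81 (all genes -0.97). At least 4-fold lower were 6 of 23 members (26.1%), beside 26.9% of all genes: Kif22, Kif20a, Kif11, Kifc3, Kif2c and Kif4. Kif22 had 1.42 CPM in the sum, beside 89.7 in young oocytes, with a highest oocyte of 16.1 and no count in 4 of 21. Kif11 was at 4.35 CPM (0 to 19.6), Kif20a at 9.19 (0 to 42.0), Kif2c at 6.06 (0 to 57.4) and Kif4 at 30.9 (3.94 to 99.1). Kif3a was less than 4-fold lower, at 26.7 CPM (2.15 to 63.0) against 86.4 in young oocytes. For Kif22, Kif11, Kif20a, Kif4, Kifc3 and Kif3a all 21 lay below the lowest young oocyte, and for Kif2c 20 did. The share of all genes for which this holds was not counted. Kifc3, a minus-end motor, had no count in 13 of the 21.

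Kif23 was also lower in the 21, at 340 CPM against 1076, with all 21 below the lowest young oocyte, and was still first of the family. Other members had as large a share of counts as in young oocytes or a larger one. Kif18a had 161 CPM against 147, and Kif14 had 186 against 136. Kif2a was at 170 against 77.7, Kif5c at 149 against 69.8, Kif16b, a motor of early endosomes, at 77.1 against 26.0, and Kif3b at 33.1 against 10.8. At least 1.5-fold higher in the sums were 5 of 23 members, these 4 and Kif21a, beside 15.4% of all genes. Above the highest young oocyte were 17 of 21 for Kif3b, 16 for Kif5c, 15 for Kif16b, 12 for Kif14 and 11 for Kif2a. How many of all genes lie outside the young range in as many of the 21 libraries was not counted. These ratios are shares within a library. Scaling to ERCC counts was not done for the 21 alone, and over all 59 it left no member of the 23 higher by 1.5-fold. The sum of all members was 817 to 2275 CPM in the 21, below the lowest young oocyte in each. CPM totals include mitochondrially encoded counts, which were 6.78% to 61.6% of these libraries and 0.688% to 1.92% of the young ones. The sum without those counts in the totals was not computed, and their part in the difference was not tested. The same 21 libraries have the low oocyte marker sums and fewer genes seen (7385 to 13849, against 14140 to 17575 in young oocytes). Whether the members' values follow either within the 21 was not examined, and the part of these was not tested.

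**Figure D5:**
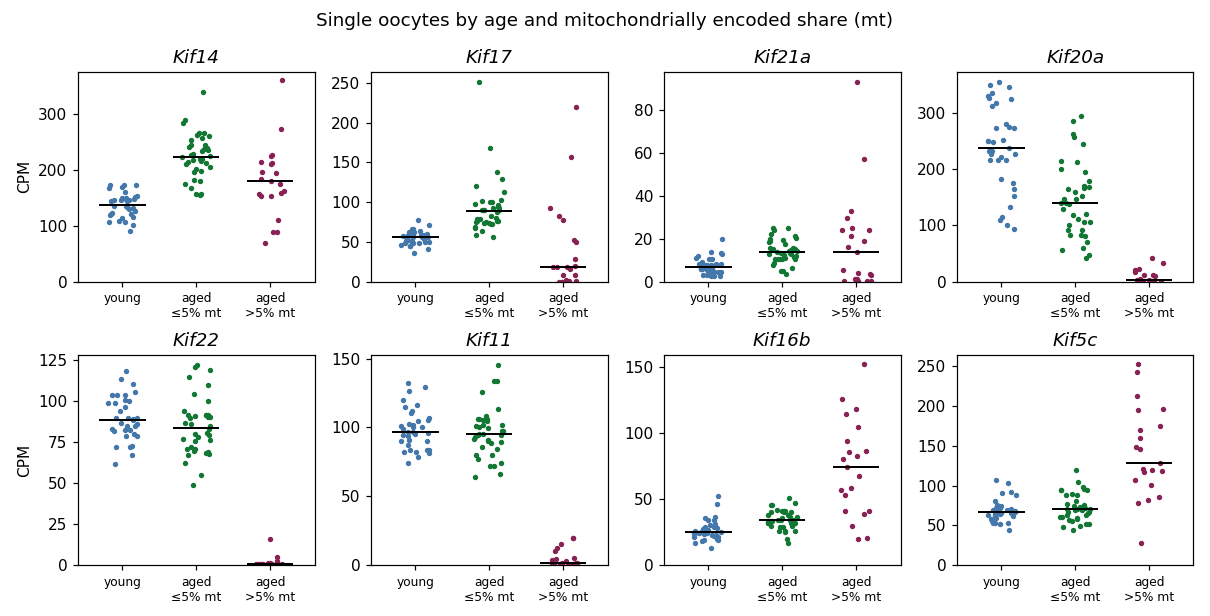
CPM of 8 members in each oocyte, for 35 young, 38 aged with a mitochondrially encoded (mt) share up to 5% and 21 aged above it. Points are oocytes and bars are medians. As shares of gene counts, and not when scaled to ERCC counts for the first pair, Kif14 and Kif17 lie higher and Kif20a lower in the 38 aged oocytes, while Kif22 and Kif11 are near 0 and Kif16b and Kif5c are highest in the 21.

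The partner lists were read the same way, where the median log2 ratio of all genes was -0.07 with all aged oocytes, 0.08 without the 21 libraries and -0.97 in the 21 alone. For 24 spindle and midzone partners it was -0.14, 0.04 and -2.07 in the same order. For 17 dynein and dynactin genes it was -0.01, 0.23 and -0.60, and for 9 light chains and adaptors 0.23, 0.30 and -0.15. The last list leaves out Kif1bp here, which is counted as a member in the single oocytes.

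Some values depend on how reads were assigned. Exons of Kif20a (chr18, 34624613 to 34633277) overlap those of Cdc23 on the opposite strand over 29.3% of their length. Cdc23 was at 10.5 CPM in young and 9.59 in the 38 aged oocytes, far below Kif20a. Kif2a shares 19.2% of its exon length with Dimt1 (21.6 and 21.5 CPM), and Kif4 15.1% with Pdzd11, which was at 12.6 and 31.0 CPM. Exons of Kif1bp, Kif3c, Kif7 and Kifc3 overlap other genes over more than 10% of their length as well. Whether the counting used strand is not known here, and reads of overlapping genes cannot be told apart. Kifc1 and Kifc5b are close copies of each other, and Kif4 and Kif22 have a pseudogene entry, so the split of their reads is uncertain. Kif14 (chr1, 136466343 to 136531511) has no such overlap above 10%.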

How the data were processed

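Poly(A) RNA was measured with Smart-seq2, per the labels' protocols. The deposited files hold raw counts per gene, which the authors made with STAR 2.7.10b and HTSeq 0.13.5 on mm10, per the submitters' processing notes. The annotation and the strand setting are not given in the sources used here. In the pools, edgeR 4.0.16 (R 4.3.3) tested all genes kept by filterByExpr (minimum count 10, total 15) with TMM, robust quasi-likelihood fits and Benjamini-Hochberg adjustment, and CPM are TMM-scaled. Alternatives used DESeq2 1.42.0 and limma-voom 3.58.1. Script checks used simulated data. Single-oocyte counts were summed per age without ERCC rows and expressed as CPM. Members, lists, thresholds and tests were chosen with earlier results of these data known. The alternatives scaled to ERCC counts and the overlapping genes were added after seeing the data. Genes with values per pool are those with a p under 0.05, those with separate groups and a fold of at least 1.5, and the 12 highest per kb. Genes with values over oocytes are the same 12 and those past 1.5-fold. Other members were chosen for printing after their values were seen. Lengths are unions of GENCODE M21 exons. No 2 of the 94 single libraries hold identical values. Pools of a group differed beyond sampling noise (chi-square per degree of freedom 18.3 in siCtrl and 28.8 in siPlat). Protein sequences were not used here.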

Additional observations from a re-analysis of the deposited data

How the results depend on the processing

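Between 0 (edgeR) and 3 kinesins (DESeq2) were called in the pools. Without a low-count filter 2 were called, with DESeq2's size factors, limma-voom or a replicate block 0, and without 1 pool in turn 0 to 4. Of the partner genes 2 were called, 1 with DESeq2's size factors and 0 with the replicate block. The shares of all genes called were 3.54%, 3.6% and 2.45% in the same order. The DESeq2 test called 2 spindle and midzone partners, 1 higher and 1 lower in siPlat, and 1 dynein or dynactin gene lower (6.13% of all genes). Without a low-count filter 1 spindle partner and 2 dynein or dynactin genes were called, all lower (4.13%). The number of partner genes also changed in fits without 1 pool. The replicate numbers do not pair the pools by their deviations (correlation -0.098). The log2 fold change of Kif20a ran from -0.20 to 0.0027, turning without siCtrl pool 1, and that of Kif3a turned to 0.0081 without siPlat pool 1. For aged over young oocytes the members' median log2 ratio, -0.08, was 0.0575 without libraries above 5% mitochondrially encoded share, 0.0671 without those above 2%, -0.16 as a mean and 0.0487 as a median over oocytes. It was 0.0391 with totals free of mitochondrially encoded genes, -0.11 with TMM factors and 0.0343 with a 1 CPM filter. Scaled to ERCC counts it was -1.43, and -0.72 without libraries above 5%. The median of all genes was -0.07, and 0.0777 and 0.0723 without libraries above 5% and 2%. It was -0.154 as a mean and -0.0733 as a median over oocytes. With totals free of mitochondrially encoded genes it was 0.0476, with TMM factors -0.0942 and with a 1 CPM filter -0.0235. With ERCC scaling it was -1.43, and -0.71 without libraries above 5%. Past 1.5-fold, 5 members became 3 with the 2% limit, where Kif20a was at -0.52, 22 with ERCC scaling and 14 with ERCC scaling and the 5% limit. They were 7 as a mean over oocytes, with Kif11 and Kif22 lower as well, and 6 with totals free of mitochondrially encoded genes, with Kif17 higher as well. As a median over oocytes they were 5, with Kifc3 on the lower side in place of Kif3b on the higher side. Of all genes, 18.8% were past 1.5-fold in the main setting and 9.9% with the 2% limit. The share was 26% as a mean and 15.1% as a median over oocytes. With totals free of mitochondrially encoded genes it was 18.5%, with ERCC scaling 95.3%, and 64% with ERCC scaling and the 5% limit. ERCC scaling turned Kif14 to -0.82 (-0.12 without libraries above 5%), Kif16b to -0.63 (-0.41), Kif3b to -0.66 (-0.57) and, over all libraries, Kif21a to -0.43. The causes were not tested. With 2 pools per group and 1 sample per age, small differences are not resolved.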
